A study of Mus musculus with 15 samples.

Results

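The *Peg10*-*Sgce* imprinted domain of mouse chromosome 6 was examined through 10 genes: *Peg10*, *Sgce*, *Casd1*, *Ppp1r9a*, *Pon2*, *Pon3*, *Asb4*, *Calcr*, *Tfpi2* and *Pdk4*. They were chosen by name as *Peg10* and its neighbours, found by Entrez gene identifier, and make up 10 of the 27179 rows of the count table. The question was whether a change of *Peg10* after deletion of *Phf6* was shared along the domain. *Phf6* is an X-linked gene that encodes a nuclear protein, and its mutation in people causes Börjeson-Forssman-Lehmann syndrome.

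In an imprinted domain, a gene is transcribed from the maternal or the paternal chromosome according to DNA methylation laid down in the germ line. *Peg10* and *Sgce* are transcribed from the paternal allele, away from each other, and share a control region that is methylated on the maternal allele. *Asb4*, *Calcr* and *Ppp1r9a* are among the neighbours known to be transcribed mainly from the maternal allele in at least some tissues. The counts in these inbred foetuses do not separate the alleles, so every value is the sum of both.

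RNA with a poly(A) tail was sequenced from 15 male C57BL/6 foetuses, 1 library each. E15.5 cortex, taken without culture, came from 3 *Phf6+/Y* controls and 5 *Phf6-/Y* foetuses, in which exons 4 and 5 were deleted in the germ line and so in every cell type. Cultured cortical neurons from E16.5 came from 3 *Phf6+/Y;Nes-creTg/+* controls and 4 *Phf6lox/Y;Nes-creTg/+* foetuses, in which the same exons were removed by the *Nes-cre* transgene, active in neural precursors. All 7 cultures carried *Nes-cre*, and no cortex did. Litters 1, 2 and 3 each gave 1 control cortex and 1 or 2 *Phf6-/Y* cortices. Litters 4, 5 and 6 each gave 1 culture of either genotype, and litter 7 gave a *Phf6lox/Y;Nes-creTg/+* culture only.

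Library totals ran from 16858007 to 31157700 counts. Levels are CPM, counts scaled to a common library size by TMM within a tissue, and RPKM divides CPM by the counted length of the gene in kilobases. Reads over the whole *Phf6* gene were at 181 ± 21.5 CPM (SD, n = 3) in control and 50.3 ± 5.98 CPM (SD, n = 5) in *Phf6-/Y* cortex, and every deleted library of both tissues lay below every control. The remainder are reads of exons outside the deletion.

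On GRCm38, *Casd1*, *Sgce* and *Peg10* lie next to one another. *Sgce*, on the minus strand (positions 4674350 to 4747204), ends 102 bases before *Peg10* begins on the plus strand (4747306 to 4760517). Relative to the start of *Peg10*, the lower coordinates of *Calcr*, *Tfpi2* and *Casd1* lie at -1062, -785 and -146 kb. Those of *Ppp1r9a*, *Pon3*, *Pon2*, *Asb4* and *Pdk4* lie at 156, 469, 517, 636 and 736 kb. The span of *Ppp1r9a* overlaps that of *Gmfg-ps*, and the span of *Calcr* those of *Mir653* and *Mir489*. Whether the counted exons overlap was not examined.

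The promoter sequences of 8 of the 10 genes were matched in RefSeq for GRCm38, each 300 bases with 250 before and 50 from the start of transcription. Those of *Peg10* and *Sgce* are not shown here. 4 are shown, 5′ to 3′ along the gene, with each CG dinucleotide, the site of DNA methylation, in capitals. *Asb4* (chr6:5383136-5383435, plus strand) and *Calcr* (chr6:3764664-3764963, minus strand) were the neighbours with the largest positive log2 fold changes in the *Phf6-/Y* cortex, of which that of *Calcr* was not called. *Pon3* (chr6:5256184-5256483, minus strand) and *Pon2* (chr6:5298291-5298590, minus strand) were neighbours without a called change, with 7 and 31 CG dinucleotides.
Asb4: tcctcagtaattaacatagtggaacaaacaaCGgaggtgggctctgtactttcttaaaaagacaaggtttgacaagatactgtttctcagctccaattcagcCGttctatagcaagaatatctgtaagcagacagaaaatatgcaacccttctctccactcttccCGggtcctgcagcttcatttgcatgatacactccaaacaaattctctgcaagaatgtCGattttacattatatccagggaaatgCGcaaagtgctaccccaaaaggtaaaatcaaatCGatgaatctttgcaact
Calcr: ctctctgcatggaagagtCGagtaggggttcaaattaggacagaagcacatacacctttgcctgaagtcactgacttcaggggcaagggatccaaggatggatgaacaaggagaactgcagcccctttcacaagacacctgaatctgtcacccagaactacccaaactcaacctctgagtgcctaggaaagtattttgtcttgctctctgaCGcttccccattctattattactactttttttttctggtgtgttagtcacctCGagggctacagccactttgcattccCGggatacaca
Pon3: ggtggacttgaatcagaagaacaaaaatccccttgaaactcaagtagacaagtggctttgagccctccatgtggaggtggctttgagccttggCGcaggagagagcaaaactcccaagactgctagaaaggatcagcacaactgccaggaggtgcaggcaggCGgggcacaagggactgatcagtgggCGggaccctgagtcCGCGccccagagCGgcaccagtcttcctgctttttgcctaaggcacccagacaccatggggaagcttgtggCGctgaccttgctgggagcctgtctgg
Pon2: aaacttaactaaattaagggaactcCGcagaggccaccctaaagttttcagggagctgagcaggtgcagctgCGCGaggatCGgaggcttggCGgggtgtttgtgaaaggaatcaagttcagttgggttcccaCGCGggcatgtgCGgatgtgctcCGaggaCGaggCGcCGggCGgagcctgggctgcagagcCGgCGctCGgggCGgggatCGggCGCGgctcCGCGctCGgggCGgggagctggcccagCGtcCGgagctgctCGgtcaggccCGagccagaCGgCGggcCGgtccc
*Asb4* had 6 and *Calcr* 4 CG dinucleotides, against a median of 7 over 32851 promoters of the same length. Among the other neighbours the number ran from 2 in *Tfpi2* and 7 in *Pon3* through 10 in *Ppp1r9a* and 12 in *Pdk4* to 23 in *Casd1* and 31 in *Pon2*, a range that contains those of *Asb4* and *Calcr*. At least 1 CG stood in 94.6% of all promoters, and the letters say nothing of which sites were methylated here.

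The level of each gene was compared first. In control cortex *Peg10*, which encodes a gag-pol protein derived from a retrotransposon, was the highest of the 10 at 31.8 ± 11.9 RPKM (SD, n = 3). *Casd1*, a sialic acid O-acetyltransferase, followed at 17.2 ± 0.797 RPKM and *Ppp1r9a*, the actin-binding scaffold neurabin, at 16.0 ± 1.45 RPKM, and the ranges of these 2 overlapped. *Sgce*, the epsilon-sarcoglycan of the dystrophin complex whose loss in people causes myoclonus-dystonia, was at 13.5 ± 1.03 RPKM. *Pon2*, a lactonase of intracellular membranes, was at 8.69 ± 1.91 RPKM, and its range overlapped that of *Asb4*, a substrate receptor of ubiquitin ligases, at 6.66 ± 2.53 RPKM. *Pdk4*, a kinase that inhibits pyruvate dehydrogenase, *Pon3*, a lactonase, and *Calcr*, the calcitonin receptor, were all under 1 RPKM on average. *Tfpi2*, a protease inhibitor known from placenta, had 0 to 6 reads in any library.

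**Figure D1:**
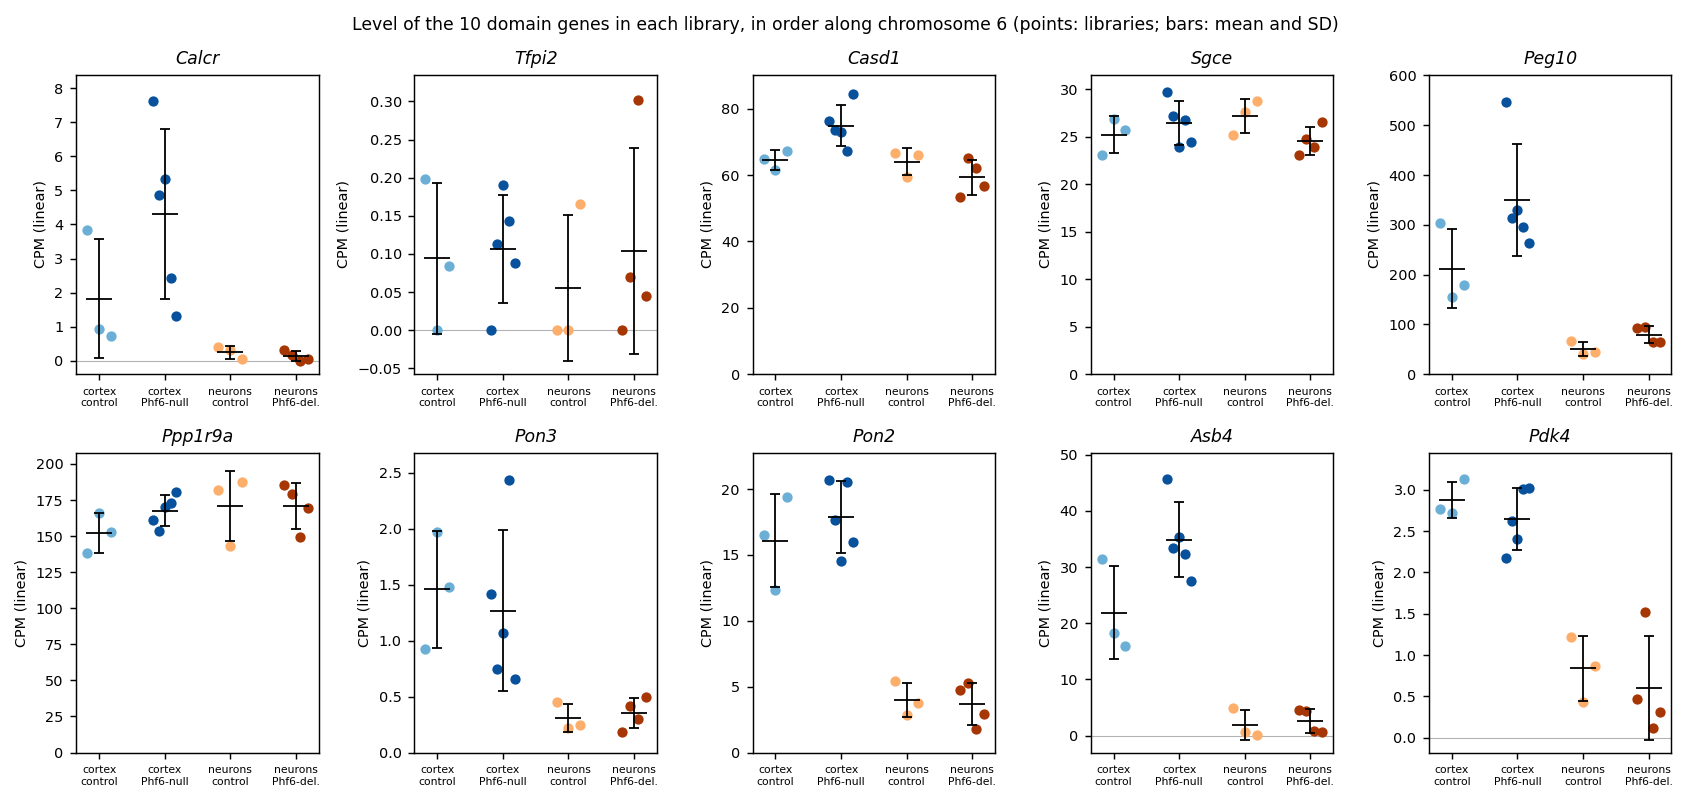
Level of each of the 10 genes in CPM (linear axes) in the 15 libraries, in the order of the genes along the chromosome, with points for libraries and bars for the group mean and SD. *Peg10* and *Asb4* were above the control of the same litter in all 5 *Phf6-/Y* cortices, *Sgce* stayed between 23.1 and 29.7 CPM in all 15 libraries, and *Peg10*, *Pon2*, *Pon3*, *Asb4*, *Calcr* and *Pdk4* were lower in every control culture than in every control cortex.

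In the *Phf6-/Y* cortex, *Peg10* and *Asb4* were higher than in control cortex, and no gene of the domain was called lower. Of the 9 domain genes tested (*Tfpi2* had too few reads), 2 passed a false discovery rate (FDR) of 0.05 as higher, against 0.319% of all 14750 genes tested in that direction and 0.0678% as lower. The median log2 fold change of the 9 was 0.19, and that of all genes tested was near 0 (-0.002). For no domain gene did every *Phf6-/Y* cortex lie above every control, a separation found in 2.34% of all genes tested. The share of all genes that lay on the same side of the littermate control in every litter was not counted for either tissue. Littermate counts below are therefore descriptive only. FDR values are those of edgeR's quasi-likelihood F test in a model with litter, adjusted over all genes by Benjamini-Hochberg.

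*Peg10* was at 303, 155 and 178 CPM in control cortices 1, 2 and 3. It was at 548, 314, 329, 297 and 264 CPM in *Phf6-/Y* cortices 1 to 5. The groups overlapped, since control 1 lay above 2 *Phf6-/Y* cortices, but control 1 and *Phf6-/Y* 1, the highest of either group, came from the same litter. Within litters the *Phf6-/Y* mean was 1.57-fold the control in litter 1, 2.08-fold in litter 2 and 1.81-fold in litter 3. The fitted log2 fold change was 0.85 (SE 0.0809, FDR = 0.000527), second by p-value among all genes tested. Fits that each omitted 1 cortex gave 0.74 to 0.97, with FDR at most 0.0166. Without the litter term it was 0.72 and was not called (FDR = 0.738).

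*Asb4* was at 31.4, 18.2 and 16.0 CPM in control cortices 1, 2 and 3. In *Phf6-/Y* cortices 1 to 5 it was at 45.6, 33.3, 35.3, 32.4 and 27.6 CPM. As for *Peg10*, the litter 3 pair was the highest of its groups and 5 of 5 *Phf6-/Y* cortices lay above the control of their litter. For *Asb4*, 4 of 5 exceeded all 3 controls. The log2 fold change was 0.80 (SE 0.105, FDR = 0.00604). It was between 0.74 and 0.92 with a library left out, but the call was lost without control 2 (FDR = 0.0977), without control 3 (FDR = 0.0711) and without the litter term (FDR = 0.618).

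*Calcr* had few reads, 17 to 116 in the controls and 30 to 172 in the *Phf6-/Y* cortices. It was at 3.83, 0.922 and 0.718 CPM in control cortices 1, 2 and 3, and at 7.62, 4.88, 5.33, 2.44 and 1.31 CPM in *Phf6-/Y* cortices 1 to 5. All 5 *Phf6-/Y* cortices were above their littermate, by 1.99-fold in litter 3 and 5.54-fold in litter 2. The log2 fold change was 1.62 (SE 0.331) and missed the threshold (edgeR FDR = 0.0596). It passed with DESeq2 (adjusted p = 0.000712), with limma-trend (FDR = 0.0403) and without the count filter (FDR = 0.0124). Left-out libraries gave FDR values between 0.0142 and 0.325.

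**Figure D2:**
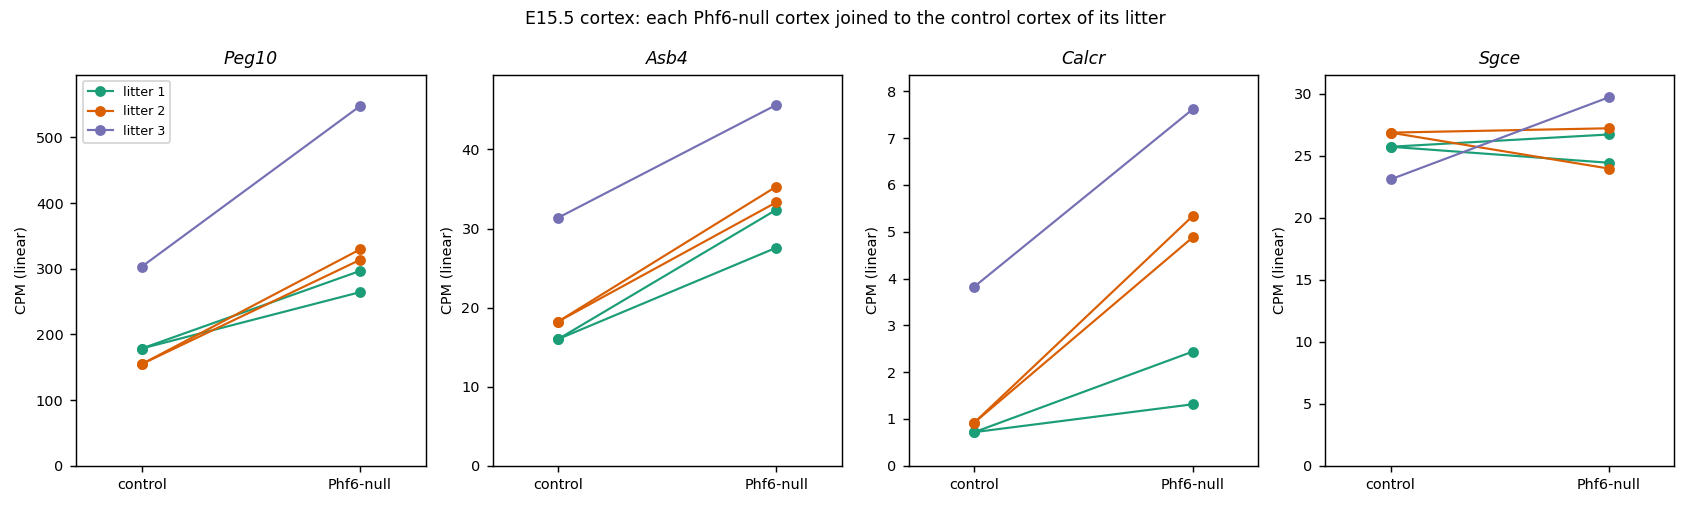
CPM (linear axes from 0) of *Peg10*, *Asb4*, *Calcr* and *Sgce* in E15.5 cortex, with a line from the control to each *Phf6-/Y* cortex of the same litter, coloured by litter. All 5 lines rose for *Peg10*, *Asb4* and *Calcr*, and litter 3 was the highest at both ends, while 3 of 5 rose for *Sgce*.

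The genes between and around these did not change detectably. *Sgce*, the partner of *Peg10* at the shared control region, was at 23.1, 26.9 and 25.7 CPM in control cortices 1, 2 and 3. It was at 29.7, 27.2, 24.0, 26.7 and 24.4 CPM in *Phf6-/Y* cortices 1 to 5, a range that contained 2 of the 3 controls. Its log2 fold change was 0.07 (SE 0.105, FDR = 0.871), and 2 SE to either side reached from -0.14 to 0.28. This interval lies below the log2 fold change of *Peg10*.

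*Casd1* was at 61.4 to 67.4 CPM in the controls and 67.3 to 84.4 CPM in the *Phf6-/Y* cortices, and 4 of 5 lay above their littermate and above every control. Its log2 fold change of 0.22 (SE 0.081) had an unadjusted p under 0.05 and did not pass the adjustment (edgeR FDR = 0.345). *Ppp1r9a* was at 138 to 166 CPM in the controls and 153 to 181 CPM in the *Phf6-/Y* cortices, with a log2 fold change of 0.12 (FDR = 0.595). *Pon2* lay between 12.4 and 20.7 CPM over both groups, with a log2 fold change of 0.19 (FDR = 0.659). *Pdk4* was below its littermate in all 5 *Phf6-/Y* cortices, but by little: it was at 2.72 to 3.12 CPM in the controls and 2.17 to 3.02 CPM in the *Phf6-/Y* cortices (log2 fold change -0.16, SE 0.242, FDR = 0.877). *Pon3* had 15 to 68 reads in any cortex and a log2 fold change of -0.24 with an SE of 0.461 (FDR = 0.906), too wide an error to give a direction. *Tfpi2* had 0 reads in control 2 and *Phf6-/Y* 1, which allows up to 0.126 and 0.133 CPM, 3 counts in each library.

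Markers of tissue outside the cortex differed between these libraries. The summed level of 10 genes that mark subcortical forebrain, among them *Lhx9* and the thalamic gene *Tcf7l2*, was 101 to 190 CPM in the controls and 119 to 625 CPM in the *Phf6-/Y* cortices, and none was at 0 in every library of a group. The sum was above that of the littermate control in 5 of 5 *Phf6-/Y* cortices, as *Peg10*, *Asb4* and *Calcr* were, and litter 3 was again the highest in both genotypes. Of 9 of these markers tested, all 9 had a positive log2 fold change (median 1.11), and *Dbx1*, a transcription factor of the early diencephalon, was called higher (log2 fold change 3.63, FDR = 0.0136). None of 6 markers of cortical projection neurons was called, and the log2 fold changes of all 6 were negative (median -0.25), 3 of them with an unadjusted p under 0.05. Their sum was 2282 to 2499 CPM in the controls. It was 1472 CPM in *Phf6-/Y* 1 and 2287 to 2530 CPM in the other 4 *Phf6-/Y* cortices, and above the littermate in 2 of 5. Without *Phf6-/Y* 1, the library with 625 CPM, the log2 fold changes were 0.86 for *Peg10* (FDR = 0.00164), 0.92 for *Asb4* (FDR = 0.00277) and 1.96 for *Calcr* (FDR = 0.0783). That library was the only *Phf6-/Y* cortex of litter 3, so the genotype effect in this fit rested on litters 1 and 2 alone. The part of the tissue makeup in the results of the other 4 *Phf6-/Y* cortices was not tested. More RNA per cell and more cells of a type cannot be told apart in bulk tissue.

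No other summed marker list was above the littermate in 5 of 5 *Phf6-/Y* cortices, and that of radial glia was below it in all 5. Choroid plexus markers ranged from 12.4 to 528 CPM in the controls and from 10.5 to 376 CPM in the *Phf6-/Y* cortices, and were above the littermate in 1 of 5. Those of ganglionic eminence and of endothelial and mural cells were above it in 4 of 5 each, and those of meningeal fibroblasts, erythroid cells and microglia in 3 of 5 each. Radial glia markers summed to 1063 to 1129 CPM in the controls and 931.5 to 1101 CPM in the *Phf6-/Y* cortices, and none of the 5 tested was called.

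In the cultured neurons, *Peg10* alone of the 7 domain genes tested was called higher in the *Phf6lox/Y;Nes-creTg/+* cultures, against 0.194% of 13909 genes tested in that direction, and none was called lower (0.0791% of all genes). For no tested gene of the domain did every deleted culture lie above every control, as for 3.67% of all genes tested. *Pon3*, *Calcr* and *Tfpi2* had too few reads to test. The median log2 fold change of the 7 was -0.06, and 5 of 7 were negative.

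*Peg10* was at 67.7, 41.2 and 44.4 CPM in control cultures 1, 2 and 3. It was at 92.0, 95.3, 65.5 and 64.1 CPM in the *Phf6lox/Y;Nes-creTg/+* cultures 1 to 4. Control 1 lay above 2 of the 4, and each of the 3 deleted cultures with a littermate lay above it, by 1.41-fold in litter 4, 1.59-fold in litter 5 and 1.44-fold in litter 6. The log2 fold change was 0.56 (SE 0.0713, FDR = 0.00326). Fits that each omitted 1 culture gave 0.51 to 0.60, with FDR at most 0.0457, and it was not called without the litter term (0.63, FDR = 0.739). Omitting either culture of litter 4, 5 or 6 takes that litter out of the genotype effect, so these fits are not separate checks.

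*Asb4*, called in the cortex, could not be resolved in the cultures. It was at 4.96, 0.697 and 0.124 CPM in control cultures 1, 2 and 3, and at 4.48, 4.30, 0.785 and 0.681 CPM in the deleted cultures 1 to 4. The spread followed the litter: both cultures of litter 4 were at 4.30 CPM or more, and those of litters 5 and 6 under 1. The log2 fold change was 0.32 with an SE of 0.411 (FDR = 0.862), so that 2 SE to either side reached from -0.50 to 1.14, and this range contains the value of the cortex.

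*Sgce* was at 25.2, 27.6 and 28.8 CPM in control cultures 1, 2 and 3 and at 23.1, 24.7, 23.9 and 26.6 CPM in the deleted cultures 1 to 4. It was below its littermate in 3 of 3 litters, the opposite side from *Peg10*, but the log2 fold change of -0.12 (SE 0.097) was not called (FDR = 0.753). *Pon2* was also below its littermate in 3 of 3, at 1.81 to 5.31 CPM in the deleted and 2.83 to 5.41 CPM in the control cultures (log2 fold change -0.30, SE 0.236, FDR = 0.729). The log2 fold changes of *Casd1* and *Ppp1r9a* were -0.06 and -0.04, and 2 SE to either side reached from -0.22 to 0.09 and from -0.16 to 0.08. *Pdk4* had 2 to 44 reads in any culture and a log2 fold change of -0.62 with an SE of 0.578. Without control 1 or deleted culture 2, both of litter 4, it was -1.56, and in the other fits that omitted a culture it was -0.61 to -0.27, with no call in any. *Calcr* had 0 to 12 reads, and the culture with 0 allows up to 0.181 CPM.

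Subcortical forebrain markers summed to 11.1 to 18.5 CPM in the control and 17.2 to 25.3 CPM in the deleted cultures, above the littermate in 3 of 3, and *Foxb1* was at 0 in every culture. *Lhx9* was called higher (log2 fold change 0.82, FDR = 0.0173), and 2 of 6 markers tested were positive. Choroid plexus markers summed to 4.09 to 5.80 CPM in the control and 7.18 to 27.3 CPM in the deleted cultures, and *Ttr*, the transthyretin of choroid plexus, was called higher (log2 fold change 2.84, FDR = 0.000188). Meningeal, microglial, and endothelial and mural markers were also above the littermate in 3 of 3, with *Cldn5* at 0 in the control cultures. Those of cortical projection neurons were above it in 2 of 3, and those of ganglionic eminence, erythroid cells and radial glia in 1 of 3 each. Their part in the *Peg10* result was not tested.

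**Figure D3:**
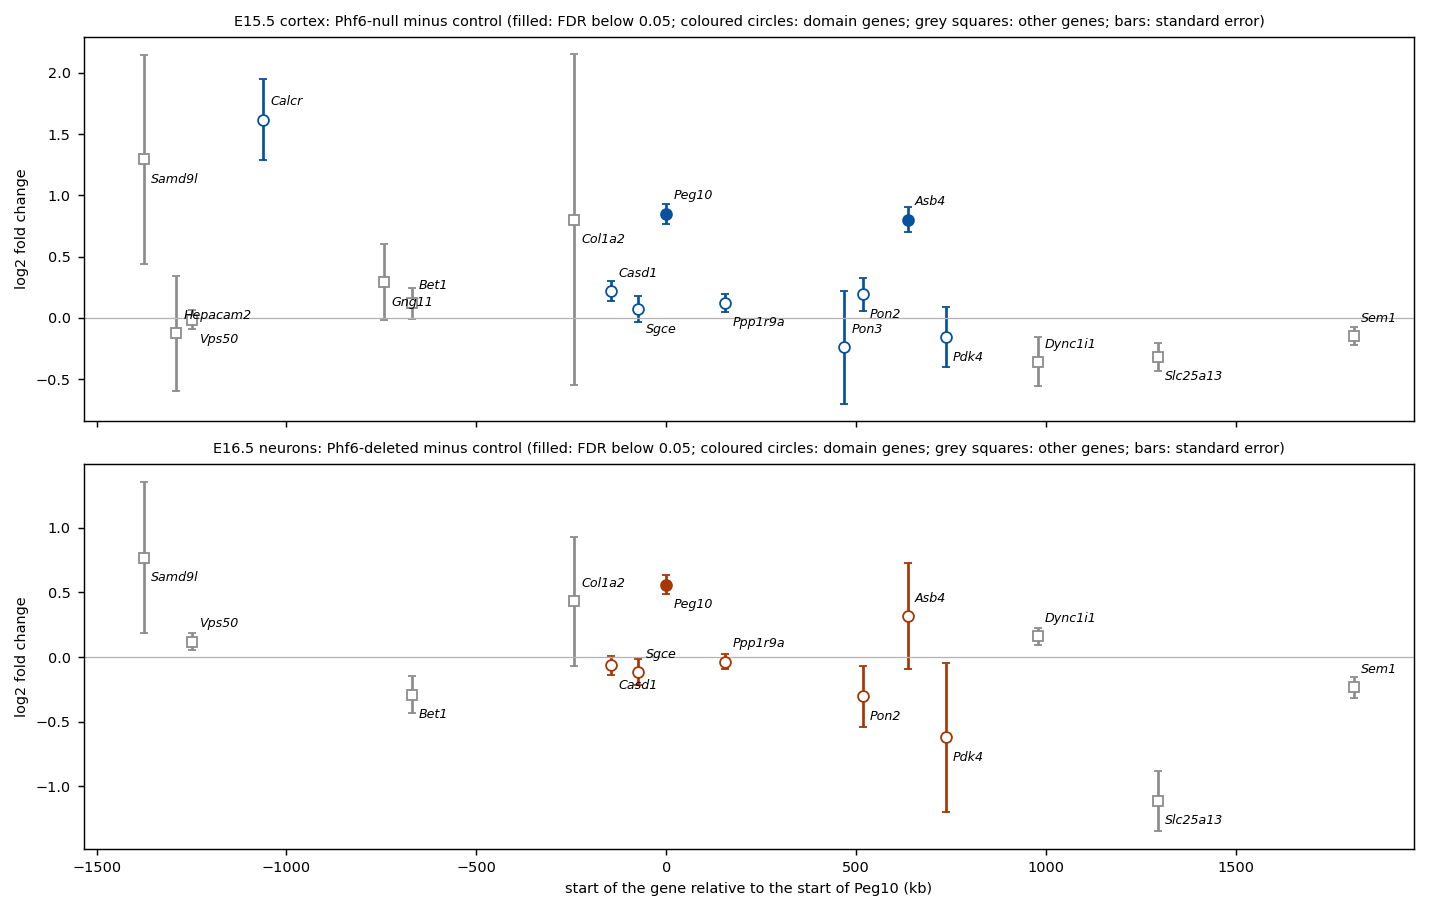
log2 fold change with its standard error (vertical axis) of the tested protein-coding genes within 2 Mb of *Peg10* against the distance of their start from that of *Peg10* in kb (horizontal axis), for the cortex (top) and the neurons (bottom). Filled symbols, FDR below 0.05, are *Peg10* and *Asb4* in the cortex and *Peg10* in the neurons, with uncalled genes on both sides of each.

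The other 12 protein-coding genes that start within 2 Mb of *Peg10* held no called change. An FDR below 0.05 was found for 0 of the 9 tested in cortex and 0 of the 7 tested in culture, and their median log2 fold changes were -0.01 and 0.12. *Col1a2*, a chain of type I collagen that lies between *Tfpi2* and *Casd1*, had a log2 fold change of 0.80 with an SE of 1.35 in the cortex, and *Dync1i1*, a subunit of the dynein motor beyond *Pdk4*, one of -0.36 with an SE of 0.2. *Bet1* and *Gng11*, between *Tfpi2* and *Col1a2*, had log2 fold changes of 0.12 and 0.29 in the cortex (FDR = 0.803 and 0.804). The smallest FDR of the 12 was 0.329 in the cortex and 0.0709 in the neurons, both for *Slc25a13*, a mitochondrial aspartate-glutamate carrier, with log2 fold changes of -0.32 and -1.11 that were not called. Its unadjusted p was under 0.05 in both tissues.

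Whether *Peg10* and a neighbour responded unequally was tested on their ratio within each library, which does not depend on the scaling of libraries. The ratio was compared between genotypes within litters over both tissues by an exact two-sided permutation test with 144 arrangements, whose smallest possible p is 0.00694, and adjusted over the 6 neighbours that passed the count filter in both tissues. All 6 ratios share *Peg10*, whose higher level was already known from these data. They are therefore not independent and give no separate evidence of that rise, which any neighbour of steady level would return. The ratio of *Peg10* to *Sgce* counts was 5.76 to 13.1 in control and 10.8 to 18.4 in *Phf6-/Y* cortex, and 1.49 to 2.69 in control and 2.41 to 3.98 in deleted cultures. The groups overlapped through the controls of litters 3 and 4. The litter-adjusted log2 difference was 0.78 in the cortex and 0.68 in the neurons, 0.73 on average (exact permutation p = 0.00694, adjusted p = 0.00833).

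For *Casd1*, *Ppp1r9a*, *Pon2* and *Pdk4* the mean log2 differences were 0.63, 0.66, 0.78 and 1.28, each with the same smallest possible p and an adjusted exact permutation p of 0.00833. *Pdk4* was thinly counted in the cultures, and with 0.5 CPM added its mean difference was 0.95, with that in the neurons falling from 1.56 to 0.92. Permuted without regard to litter, all 5 ratios passed at an adjusted permutation p of 0.0202. With a library left out, 4 or 5 of the 6 passed, and the one lost was *Casd1* without cortex control 2 (adjusted permutation p = 0.05). Against *Asb4* the mean difference was -0.10 (exact permutation p = 0.917). In the cortex, where *Asb4* was well counted, the ratio of *Peg10* to *Asb4* had a median of 9.66 in the controls and 9.41 in the *Phf6-/Y* libraries, with a litter-adjusted log2 difference of 0.04. In the cultures it ran from 13.7 to 357.

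**Figure D4:**
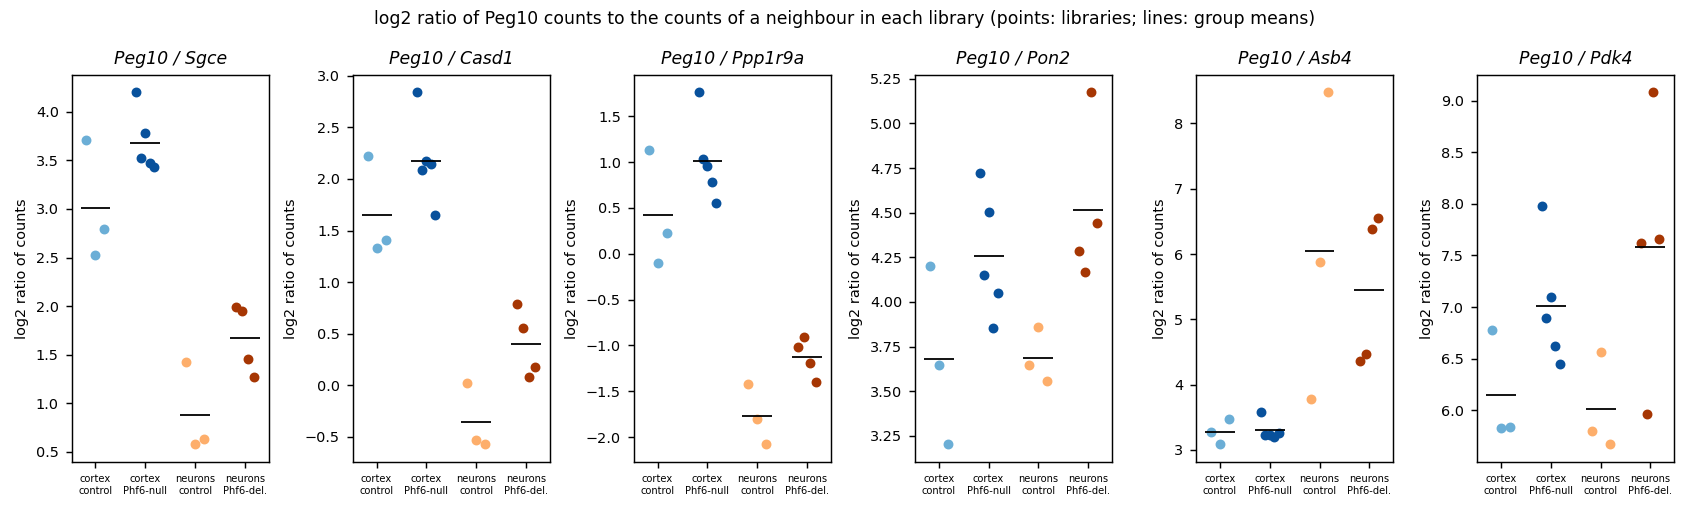
log2 ratio of *Peg10* counts to those of 6 neighbours (vertical axes, not starting at 0) in each library, by group, with lines at group means. The group means of the deleted libraries were higher in both tissues against *Sgce*, *Casd1*, *Ppp1r9a*, *Pon2* and *Pdk4*, whereas against *Asb4* the cortex values lay together (median ratios of 9.66 and 9.41) and the culture values were spread out.

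The genotype effects of the tissues were compared in 1 fit over the 15 libraries. None of the 9 domain genes tested was called (0 with edgeR, DESeq2 and limma-trend, against 0.0133% of 15001 genes in either direction). Of the 9 values, 8 were negative, and the lack of a call does not show equal effects. The log2 fold change of *Peg10* in neurons minus that in cortex was -0.29 (SE 0.112, edgeR FDR = 0.907). Its unadjusted p was under 0.05, as were those of *Calcr* (edgeR FDR = 0.623), *Casd1* and *Asb4*, all with a lower value in the neurons. Over all genes such a p was found for 438 lower and 341 higher. *Calcr* had too few reads to test in the cultures alone and passed the count filter here through the cortex. Germline or *Nes-cre* deletion, age and culture differ with the tissue and cannot be told apart.

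Between the control groups, 6 of 9 domain genes tested differed: 5 were lower in cultured neurons, against 26.4% of 14320 genes tested, and 1 was higher, against 24.7%. Every control culture lay below every control cortex for 6 domain genes, as for 31.8% of all genes tested. *Peg10* was at 54.1 CPM in the control cultures and 202 CPM in the control cortices when scaled together (log2 fold change -1.90, SE 0.354, FDR = 0.00873), a call lost narrowly without control culture 3 (FDR = 0.0514). *Pon2* (log2 fold change -1.84, FDR = 5.51e-05), *Pon3* (-2.05, FDR = 0.00518), *Pdk4* (-1.60, FDR = 0.00497) and *Calcr* (-2.66, FDR = 0.0156) were lower too, that of *Calcr* being lost without cortex control 1 (-1.49, FDR = 0.142) or culture control 2 (-2.75, FDR = 0.0511). *Pon3* and *Calcr* had only 5 to 13 and 1 to 12 reads in the control cultures. They passed the count filter here through the cortex, where they are higher, so a call in the other direction was hardly possible. *Asb4* had the largest difference, -3.29, and every control culture lay below every control cortex, but with an SE of 1.10 it was not called by edgeR (FDR = 0.0672). It was called by DESeq2 (adjusted p = 0.0185) and by edgeR without control culture 1, at -5.59 (FDR = 0.000595), while the other fits that omitted a library gave -3.47 to -2.74 and no call.

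*Sgce* and *Casd1* were not called between the tissues, at 28.8 CPM in cultures against 24.0 CPM in cortex (log2 fold change 0.26, FDR = 0.0775) and 67.8 against 61.5 CPM (0.14, FDR = 0.215). *Ppp1r9a* was called higher in the cultures (0.32, FDR = 0.0252), but not with libraries scaled by their totals (FDR = 0.174), which moved the median of all genes from -0.03 to -0.17, nor in 4 of the 6 fits that omitted a library. As a result *Peg10*, the highest of the domain in cortex, was exceeded in control cultures by 3 genes of the domain: it was at 7.67 ± 2.17 RPKM (SD, n = 3), under *Ppp1r9a* (17.9 ± 2.52), *Casd1* (17.1 ± 1.07) and *Sgce* (14.5 ± 0.965). Age, culture, *Nes-cre* and litter differ with the tissue and cannot be told apart.

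Likeness to *Peg10* was described by Pearson's r of log2 CPM over the 15 libraries after each tissue's mean was taken off, among 13732 genes tested in both tissues. *Asb4* was the most like of the domain (r = 0.69, rank 149), with r = 0.96 over the 8 cortices and 0.81 over the 7 cultures. Without the 2 libraries farthest from the median of *Peg10*, cortex control 2 and *Phf6-/Y* 1, its r over all libraries was 0.78. *Pon2* followed (0.43), then *Casd1* (0.25), *Ppp1r9a* (0.20), *Pdk4* (0.02) and *Sgce* (-0.18). *Sgce* was opposed to *Peg10* among the cultures (r = -0.85) but not among the cortices (0.28). The 5 genes most like *Peg10* lay on other chromosomes: *Traf3*, an adaptor of tumour necrosis factor receptors (r = 0.93), *Adgra1*, an adhesion receptor (0.90), *Lrp2*, the endocytic receptor megalin (0.90), *Efna5* (0.90) and *Sash1*, a scaffold protein (0.90). Of these *Efna5*, the ephrin-A5 ligand, was called higher in the *Phf6-/Y* cortex (log2 fold change 0.59, FDR = 0.0393), and the others were not called in either tissue. The libraries share genotype, litter and dissection, so these values describe the libraries only.

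Relatives of *Peg10* that also derive from retrotransposon gag genes were not called in either tissue, 0 of 9 tested in the cortex and 0 of 8 in the neurons. In the cortex 8 of 9 had a positive log2 fold change (median 0.28) and 2 had an unadjusted p under 0.05: *Rtl1*, a paternally expressed gene of another imprinted domain, at 0.929 CPM in control and 2.43 CPM in *Phf6-/Y* cortex (log2 fold change 1.54, edgeR FDR = 0.09), and *Rtl5* at 84.4 and 99.9 CPM (0.31, edgeR FDR = 0.111). *Rtl6*, the highest of them, was at 172 and 167 CPM. The summed level of the list was above that of the littermate in 5 of 5 *Phf6-/Y* cortices (353 to 440 CPM, against 350 to 425 CPM in the controls) and in 2 of 3 deleted cultures. Over all genes, an unadjusted p under 0.05 was found for 839 higher and 703 lower of 14750 in the cortex and for 816 and 621 of 13909 in the neurons. In the neurons 6 of 8 were positive (median 0.15), with *Rtl1* at -0.36 and 1 unadjusted p under 0.05.

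Genes that maintain imprints and DNA methylation were also not called, 0 of 15 tested in either tissue, with medians of 0.04 in the cortex and -0.02 in the neurons. *Dnmt1*, the maintenance methyltransferase, was at 360 CPM in control and 341 CPM in *Phf6-/Y* cortex, and *Zfp57*, which protects imprints in the embryo, at 269 and 286 CPM. *Trim28*, the co-repressor that *Zfp57* recruits, was at 709 and 659 CPM. In the cortex 3 of 15 had an unadjusted p under 0.05 in the positive direction, *Tet1*, *Tet2* and *Atrx*, with log2 fold changes of 0.24, 0.21 and 0.20 (edgeR FDR from 0.29 to 0.462). In the neurons 1 such p was positive and 1 negative. The summed level of the list was above the littermate in 3 of 5 *Phf6-/Y* cortices and in 2 of 3 deleted cultures. Partners of *Sgce* in the dystrophin complex were not called, 0 of 12 tested in the cortex and 0 of 10 in the neurons. *Dag1*, dystroglycan, was at 142 and 147 CPM in the cortex and at 129 and 144 CPM in the neurons, and 1 and 2 of the partners had an unadjusted p under 0.05. The summed level of the 14 partners was 342 to 363 CPM in the control and 375 to 394 CPM in the deleted cultures, so that every deleted culture lay above every control. The same held for 3.67% of single genes tested in the cultures. It also held for the summed markers of choroid plexus and of endothelial and mural cells. In the cortex the sum of the partners was above the littermate in 3 of 5.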

How the data were processed

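The 15 libraries were described by raw counts of reads per Entrez gene, which the authors deposited without normalization. They were made from paired-end reads of stranded poly(A) libraries aligned to mm10 (GRCm38) with Rsubread and counted by featureCounts with its inbuilt RefSeq annotation. The strand setting of the counting is not given in the sources used here. All 15 per-sample files equalled their column of the series table. Of 27179 rows, 1029 had no gene identifier (0.349% to 0.605% of a library) and were left out, as were 875 identifiers not matched in RefSeq GRCm38.p6, 835 pseudogenes, 35 ribosomal RNA genes and 1273 predicted names. The 23132 genes kept were filtered by filterByExpr in each comparison.

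Each tissue was fitted on its own with edgeR 4.0.16 (robust quasi-likelihood F test, TMM) and litter, taken from the sample labels, as a term. The control tissues were compared without litter, and the tissues' genotype effects in 1 fit. The SE is that of the fitted log2 fold change. The deviations of same-litter libraries of different genotype had r from -0.09 to 0.477 in the cortex and 0.186 to 0.374 in the neurons. Between different litters r ran from -0.429 to 0.111 and from -0.362 to 0.307, which overlaps the same-litter values in both tissues. Litter 7 has no control and adds nothing to the genotype effect. In the same way, leaving out the only control or the only deleted library of a litter takes that litter out of the genotype effect. Each library is 1 foetus. The alternatives were DESeq2 1.42.0, limma 3.58.1 (trend), other scalings, no count filter, all gene rows, other blocks and each library left out. In simulated counts with 200 genes shifted by 0.8 on the log2 scale, the fits recovered 95.5% in the cortex (10 false calls), 100% in the neurons (8), 86.5% between control tissues (9) and 71.5% in the interaction (12). The shifted genes were drawn from well-counted ones, and dispersion was the same for all genes. A litter effect, of the same spread for all genes, was simulated except between the control tissues. These rates do not cover thinly counted genes such as *Calcr*, *Pon3* and *Pdk4*, or genes that vary more between litters. Limits on counts of 0 cover counting error only.

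The text names every gene of the domain, *Phf6*, genes within 2 Mb by distance or call, the 5 genes most like *Peg10*, and listed genes that were called or of high level. *Slc25a13* and listed genes with a low unadjusted p were named after their values were seen. The genes of the domain, the lists and the tests were chosen with earlier results of these data known. Genome sequence other than promoters, allele-specific reads and proteins were not analysed here.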

Additional observations from a re-analysis of the deposited data

Results flagged for a closer look

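Among 17 groups of 4 or 5 libraries examined, 1 held a library far from the others by Dixon's test: *Peg10* in the first of the 5 *Phf6-/Y* cortices, at 547.6 CPM against 264 to 329 CPM in the other 4. Chance flags about 1 in 20 such groups. The control of the same litter was also the highest of the 3 controls, at 303 CPM. Subcortical forebrain markers summed to 625 CPM in this library and to 119 to 154 CPM in the other 4. Without it the log2 fold change of *Peg10* was 0.86 (edgeR FDR = 0.00164), against 0.85 with it. This library was the only *Phf6-/Y* cortex of litter 3, so the fit without it rested on litters 1 and 2 alone.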

How the results depend on the processing

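The litter term bore on every call of a genotype effect. With no litter term and no replicate block, 0 genes of the domain were called in the cortex in place of 2, and 0 in the neurons in place of 1, with log2 fold changes of *Peg10* of 0.72 and 0.63. Over all genes this fit called 0 higher and 1 lower in either tissue, against 47 and 10 in the cortex and 27 and 11 in the neurons. The replicate numbers of the titles follow litter only in part: cortex replicates 1 and 2 of both genotypes are littermates (r of their deviations 0.324 and 0.092), cortex replicate 3 is not (-0.228), and no same-numbered cultures are (-0.249 to 0.307). No pairing was taken from them. The replicate block in place of litter called 3 genes in the cortex (*Calcr*, *Peg10*, *Asb4*) and 0 in the neurons (*Peg10* 0.74, edgeR FDR = 0.278), with 3 higher and 2 lower genes in all there. In it the value of *Ppp1r9a* in the neurons became 0.009871, and without the litter term 0.0007728. The cause of these changes was not tested.

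With each library left out, 1 to 3 genes of the domain were called in the cortex, 1 in the neurons, 4 to 6 between the control tissues and 0 in the interaction. Uncalled values that changed sign ranged from -0.03427 to 0.1529 for *Sgce* and -0.6119 to 0.3035 for *Pon3* in the cortex. In the neurons they ranged from -0.1271 to 0.01192 for *Casd1*, -0.08315 to 0.0203 for *Ppp1r9a* and -0.0923 to 1.002 for *Asb4*. The interaction of *Asb4* ranged from -0.9339 to 0.1168, and the log2 ratio of *Peg10* to it differed by -0.334 to 0.322, and by 0.17 with 0.5 CPM added. Genes called over the whole table numbered 156 higher and 43 lower in the cortex with DESeq2, and 95 and 19 without the count filter. In the neurons they were 47 and 15 with DESeq2, 46 and 27 with library totals and 178 and 119 without the filter. Left-out libraries gave 6 to 68 higher genes in the cortex and 12 to 335 in the neurons. Between the control tissues, library totals gave 2459 higher and 5003 lower genes in place of 3541 and 3777. Low counts limit *Tfpi2*, *Pon3*, *Pdk4* and, in the neurons, *Calcr* and *Asb4*.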
